A study of Homo sapiens with 24 samples.

Results

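HCT116 is a human colorectal carcinoma cell line, and the p53 Null line studied here is a derivative of it without functional p53. The comparison asks what irradiation adds to a culture that already carries APR-246. The 2 libraries of Null cells pretreated with 20 uM APR-246, irradiated at 6 Gy and collected 72 hours later were set against the 2 libraries of Null cells given 20 uM APR-246 alone, which makes 4 of the 24 libraries of the series. All genes were taken by gene identifier, with no choice by level or by change. The other 20 libraries are Null cells given irradiation or solvent, and the WT and Mutant p53 lines of HCT116 under the same 4 conditions. Each p53 status is 1 line, so a difference between lines is not separable from other differences between these lines. The libraries of a group carry the numbers 1 and 2, with no statement on whether they came from separate cultures, so each p-value measures the spread between these libraries and that spread may be technical.

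APR-246 (eprenetapopt) is converted in cells into a reactive compound that binds cysteines, in mutant p53 and also in glutathione and thioredoxin reductase. Ionising radiation breaks DNA. In cells with functional p53 the breaks induce CDKN1A, MDM2 and other p53 targets, whereas cells without p53 lack this arm and can divide with damaged chromosomes. RNA in the cytosol is read by sensors such as RIGI and IFIH1, and DNA by CGAS, and these switch on interferons and, through them, a broad set of antiviral genes.

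Poly(A)-selected RNA was sequenced to 54807583 and 54268877 assigned reads in the 2 combination libraries and to 57787074 and 55798237 reads in the 2 APR-246 libraries. The combination libraries had 27431 and 22919 genes above 0, and the APR-246 libraries had 24573 and 25579. Levels are given as CPM, read counts scaled to the total of a library, after further scaling by the trimmed mean of M values (TMM). The marker sums below are in deposited CPM, without the TMM scaling. The slope of log2 level on the GC content of genes, per 10 percentage points of GC, was -0.16 and 0.63 in combination libraries 1 and 2, against 0.15 and -0.09 in the APR-246 libraries. The slope of 0.63 was the highest of the 24 libraries. Results are therefore given from a model of group means alone and, named as such, from the GC-slope model, which adds this slope as a covariate. The summed level of 9 colorectal epithelium markers was 11607 and 15916 CPM in the combination against 9202 and 7783 CPM under APR-246. The markers differed widely in level. With TMM scaling KRT8 was at 5656 and 11926 CPM in the combination against 5120 and 3987 CPM under APR-246. VIL1 was at 0.308 and 0.189 CPM against 0.0362 and 0.299 CPM, and CDX1 stayed below the filter on low counts. Blood cell markers added up to 2.70 and 2.69 CPM in the combination against 1.71 and 1.42 CPM under APR-246, and fibroblast markers to 42.1 and 32.9 CPM against 35.2 and 42.6 CPM. HBB stood at 0 in all 4 libraries, and so did DCN of the fibroblast set.

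Irradiation on top of APR-246 raised 5 genes in Null cells and lowered 0, by limma with a threshold of 0.05 on the p adjusted after Benjamini and Hochberg for 20668 genes, a share of 0.0242%. Without adjustment 1149 genes had a p under 0.05, of which 743 (3.59% of genes tested) were higher and 406 (1.96%) lower. DESeq2 called 39 higher and 10 lower, and edgeR called 1 higher and 0 lower. The leading gene was IFIT1, an interferon-induced protein that binds viral RNA lacking 2′-O-methylation at its cap. IFIT1 (chromosome 10, 89392546 to 89406486, plus strand, GRCh38) stood at 14.6 and 12.8 CPM in the combination libraries, against 2.39 and 2.41 CPM in the APR-246 libraries. Both irradiated libraries lay above both unirradiated ones, and the log2 difference was 2.29 ± 0.25 (SE, adjusted p = 0.00149), or 4.89-fold. That call was lost without APR-246 library 1 (adjusted p = 0.0681) or APR-246 library 2 (adjusted p = 0.0639), while the difference was 2.19 to 2.38 over the 4 left-out libraries.

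The other 4 called genes were weakly expressed and sat at the threshold. TCN1 (chromosome 11, 59852800 to 59866575, minus strand), which encodes the vitamin B12 carrier haptocorrin, was at 2.98 and 2.18 CPM in the combination and at 0.543 and 0.715 CPM under APR-246, a log2 difference of 1.44 ± 0.22 (adjusted p = 0.0496). KRT6B (chromosome 12, 52446651 to 52452126, minus strand), a keratin of stressed and wounded epithelium, was at 0.874 and 1.21 CPM against 0.253 and 0.0998 CPM (1.19 ± 0.19, adjusted p = 0.0496). IFNL2, an interferon lambda gene, was at 0.389 and 0.829 CPM in the combination against 0 and 0.0333 CPM under APR-246. ENSG00000228401, an antisense gene on chromosome 9, was at 0.437 and 0.497 CPM against 0 and 0.0665 CPM, and reads of an antisense gene cannot be told from those of its partner where the counting strand is unknown. For these last genes the fitted log2 differences of 1.07 and 0.86 depend on the 0.5 CPM added before the logarithm. TCN1 was called in none of the 4 fits that leave a library out, and KRT6B, IFNL2 and ENSG00000228401 kept theirs only without combination library 1. KRT6B, IFNL2 and ENSG00000228401 averaged under 1 CPM over the 4 libraries.

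The GC-slope model called 269 genes higher (1.3% of genes tested) and 272 lower (1.32%), together 2.62%. Leaving out a library moved the total of 541 to 25 without APR-246 library 1, 82 without combination library 2, 234 without APR-246 library 2 and 860 without combination library 1. Of the 269 genes called higher, 23 to 151 were called again in these 4 fits, and of the 272 called lower, 1 to 174. Calls of that model are given below with this dependence in mind, and the number of the 4 fits that kept a named call is stated for the leading genes.

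Interferon-stimulated genes stood highest among the lists. Of 34 listed genes 32 passed the filter on low counts, and their median log2 difference was 0.68, against -0.01 over all genes tested. IFIT1 was the 1 member that rose in the model of group means, beside 0.0242% of all genes tested. In the GC-slope model 12 rose and 0 fell, beside 1.3% and 1.32% of all genes tested. Both combination libraries lay above both APR-246 libraries for 24 of the 32, a pattern seen in 16.5% of all genes tested. For 1 member both lay below both, against 16.8% of all genes tested. The counts of 12 became 11 without combination library 1, 7 without combination library 2, 6 without APR-246 library 1 and 9 without APR-246 library 2. The mean log2 level over the list was 2.82 and 2.90 in the combination libraries, against 2.02 and 2.05 in the APR-246 libraries, so the groups did not overlap.

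OASL, a relative of the oligoadenylate synthetases that assists RIGI, was at 35.5 and 70.1 CPM in the combination and at 7.24 and 8.995 CPM under APR-246. Its log2 difference was 2.55 ± 0.51 (adjusted p = 0.101), and it rose by 2.29 ± 0.18 in the GC-slope model (adjusted p = 1.05e-07), and each of the 4 left-out fits called it too. IFIT2 and IFIT3, partners of IFIT1 in the same protein complex, stood low in every library. IFIT2 was at 3.61 and 2.98 CPM against 0.471 and 0.665 CPM, and IFIT3 was at 1.78 and 1.56 CPM against 0.362 and 0.333 CPM. Both rose in the GC-slope model, by 1.93 ± 0.25 (adjusted p = 0.00029) and 1.498 ± 0.23 (adjusted p = 0.00147), in all 4 left-out fits, whereas the model of group means gave adjusted p of 0.0865 and 0.271.

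ISG15, a ubiquitin-like modifier, and IFI6, a membrane protein that limits flavivirus replication, rose in the GC-slope model. ISG15 was at 226 and 500.0 CPM in the combination, against 124 and 99.0 CPM under APR-246. IFI6 was at 51.0 and 87.5 CPM against 19.9 and 18.9 CPM. In both, combination library 2 held the higher value, and the GC-slope model gave rises of 1.26 ± 0.14 (adjusted p = 3.7e-05) and 1.51 ± 0.20 (adjusted p = 0.000311), kept in all 4 left-out fits. Calls were less stable for OAS1, IFI27, IRF7 and BST2, at GC-slope differences of 1.38, 1.28, 0.96 and 1.06. OAS1, which makes the messenger that activates RNase L, was at 1.23 and 2.20 CPM in the combination against 0.272 and 0.233 CPM under APR-246. Of these 4 genes, none kept its GC-slope call without APR-246 library 1. ISG15, IFI6, OAS1, IFI27, IRF7 and BST2 were picked for naming after their values were seen.

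Among interferon ligands and nucleic acid sensors, 15 of 20 listed genes passed the filter, with a median of 0.39 that was 0.22 without combination library 1. IFNL2 was called without the slope, and 6 rose and 0 fell with it, namely IFNL1, IFNL2, IFNL3, DHX58, IFIH1 and RIGI. Of all genes tested, 1.3% rose and 1.32% fell with the slope. Both combination libraries lay above both APR-246 libraries for 6 of the 15, against 16.5% of all genes tested. Both lay below for 1 of the 15, against 16.8%. IFNL1, the first of the interferon lambda genes, was at 1.10 and 2.94 CPM in the combination, against 0.181 and 0.200 CPM under APR-246. Its log2 difference was 1.76 ± 0.32 (adjusted p = 0.0938), and 1.66 ± 0.26 in the GC-slope model (adjusted p = 0.00196), where the call was lost without combination library 2 or APR-246 library 1. IFNL2 and IFNL3 are near-identical neighbours on chromosome 19, so the split of reads between them is uncertain. IFNL3 was at 0.648 and 0.805 CPM in the combination against 0.0905 and 0.116 CPM under APR-246. DHX58 (LGP2), a helicase of the RIGI family, was at 3.72 and 3.55 CPM against 1.76 and 1.45 CPM, a log2 difference of 0.98 ± 0.24 (adjusted p = 0.268). The GC-slope calls of IFNL3 and DHX58 held in none of the 4 left-out fits. RIGI and IFIH1, the cytosolic RNA sensors, overlapped between groups in CPM. RIGI was at 7.74 and 3.31 CPM in the combination against 2.44 and 4.12 CPM under APR-246, and its GC-slope difference of 0.90 ± 0.19 (adjusted p = 0.0146) was lost without combination library 2 or APR-246 library 1. Without the slope it was 0.60 ± 0.56. The count of 6 became 3, 0, 0 and 4 without combination libraries 1 and 2 and APR-246 libraries 1 and 2 in that order. IFNB1, CGAS, ZBP1, TREX1 and AIM2 stayed below the filter and were not tested.

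**Figure D1:**
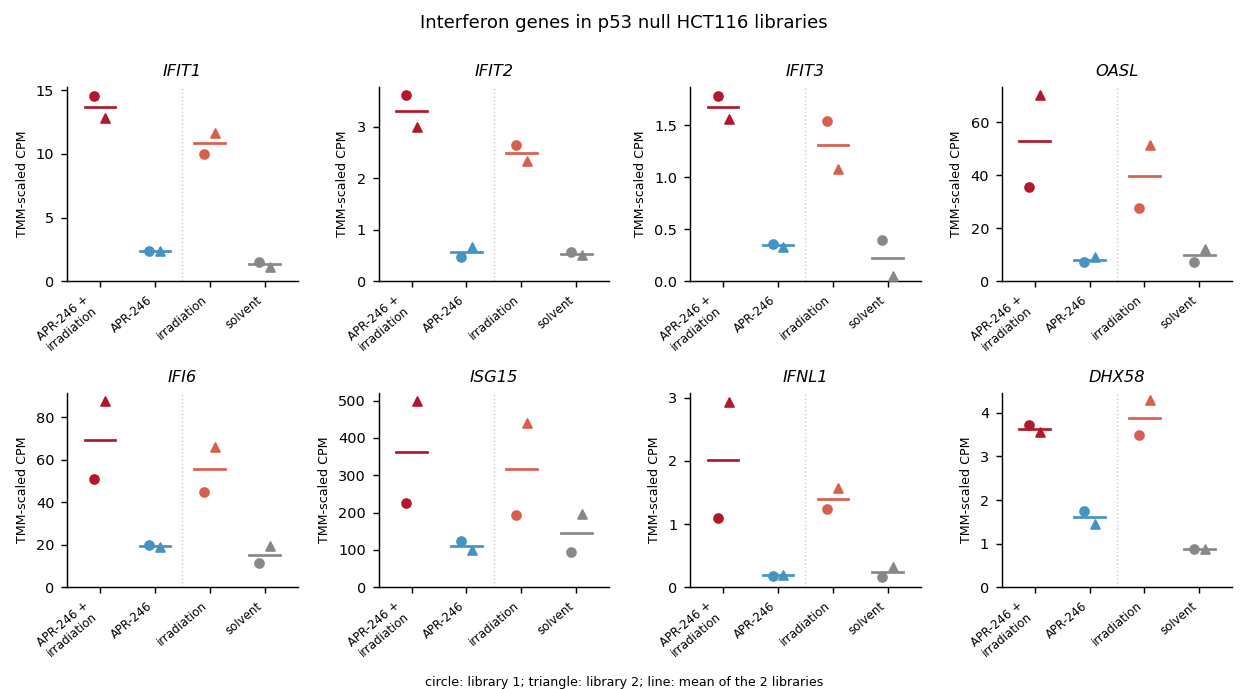
TMM-scaled CPM (vertical axes, from 0) of 8 interferon genes in the 8 Null libraries, with APR-246 plus irradiation left of APR-246 and irradiation left of solvent. Circles are library 1, triangles library 2 and lines the mean of 2 libraries. In each panel both irradiated libraries lie above both unirradiated ones beside them, except ISG15, where irradiation library 1 (193 CPM) lies just below solvent library 2 (195 CPM).

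The promoters of the leading interferon genes are shown because the interferon-stimulated response element, with the core GAAANNGAAA or TTTCNNTTTC on the other strand, is the site bound by the factors that act downstream of interferon. Each RefSeq window (GRCh38.p14) runs from 250 bases before to 50 bases after a RefSeq start and reads 5′ to 3′ along the gene. Capitals mark the matches to that core, which overlap in ISG15 and in IFNL1. The windows are chr10:89392373-89392672 for IFIT1, chr1:27672143-27672442 (minus strand) for IFI6, chr1:1013247-1013546 for ISG15 and chr19:39296157-39296456 for IFNL1.
IFIT1: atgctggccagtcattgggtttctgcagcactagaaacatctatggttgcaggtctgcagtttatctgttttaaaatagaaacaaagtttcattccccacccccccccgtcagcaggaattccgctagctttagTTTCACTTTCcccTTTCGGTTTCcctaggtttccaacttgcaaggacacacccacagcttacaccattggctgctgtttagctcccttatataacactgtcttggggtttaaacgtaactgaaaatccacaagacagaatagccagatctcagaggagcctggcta
IFI6: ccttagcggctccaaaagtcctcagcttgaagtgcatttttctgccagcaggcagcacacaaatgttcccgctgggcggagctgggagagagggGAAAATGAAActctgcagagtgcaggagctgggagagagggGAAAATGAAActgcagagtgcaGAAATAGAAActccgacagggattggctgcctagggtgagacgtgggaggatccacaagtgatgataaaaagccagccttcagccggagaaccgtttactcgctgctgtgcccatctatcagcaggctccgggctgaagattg
ISG15: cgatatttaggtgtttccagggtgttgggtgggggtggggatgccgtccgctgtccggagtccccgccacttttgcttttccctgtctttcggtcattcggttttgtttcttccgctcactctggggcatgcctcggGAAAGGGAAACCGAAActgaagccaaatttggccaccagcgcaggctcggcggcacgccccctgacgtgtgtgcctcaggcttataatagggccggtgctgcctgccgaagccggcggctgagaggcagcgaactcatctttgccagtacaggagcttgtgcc
IFNL1: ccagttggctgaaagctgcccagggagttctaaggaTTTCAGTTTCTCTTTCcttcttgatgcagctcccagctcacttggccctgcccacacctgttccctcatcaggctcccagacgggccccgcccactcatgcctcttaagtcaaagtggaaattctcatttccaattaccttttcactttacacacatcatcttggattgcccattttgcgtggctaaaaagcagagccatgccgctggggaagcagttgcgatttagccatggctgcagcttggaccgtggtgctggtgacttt
Matches numbered 2 in IFIT1, 3 in IFI6, 2 in ISG15 and 2 in IFNL1. Of the 32 interferon-stimulated genes tested, 25 had a window and 19 of these (76%) held a match. Among the sensors and ligands it was 6 of 12 with a window. Over all 27305 genes with a window, 4.38% held a match, and of 35116 windows 3.57% did. The windows of TCN1, OAS1 and H2BC12 held none of these letters. A match describes the sequence and does not show that a factor was bound in these cells.

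Replication-dependent histone genes also had risen members in the GC-slope model. These genes supply histones in S phase, and their transcripts normally end in a stem-loop without a poly(A) tail, so a poly(A)-selected library sees mainly the polyadenylated forms. Of 35 listed genes 23 passed the filter, with a median log2 difference of 0.49. None was called without the slope, and 7 rose and 0 fell with it, a count of 2 to 6 when 1 of the 4 libraries was left out. For 16 of the 23 both combination libraries lay above both APR-246 libraries, a pattern seen in 16.5% of all genes tested. For 3 of the 23 both lay below both, against 16.8% of all genes tested. Both counts include genes near the floor. H2BC8, counted above, was at 0.0648 and 0.0473 CPM in the combination against 0 and 0 CPM under APR-246. H2BC13, counted below, was at 0.0324 and 0.0473 CPM against 0.0724 and 0.0665 CPM. For such genes the log2 difference, and through it the median, depends on the 0.5 CPM added before the logarithm. With the slope 1.3% of all genes tested were called higher and 1.32% lower. The histone genes share near-identical coding sequences, so how reads were split among copies is uncertain.

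H2BC12 was at 36.9 and 56.1 CPM in the combination, against 13.3 and 12.8 CPM under APR-246. Its log2 difference was 1.76 ± 0.39 (adjusted p = 0.188), and it rose by 1.58 ± 0.17 in the GC-slope model (adjusted p = 3.49e-05), kept in all 4 left-out fits. H4C9, a histone gene outside the list, was named for its small unadjusted p in these same libraries. It was at 8.18 and 10.9 CPM against 2.23 and 2.43 CPM, and rose by 1.71 ± 0.25 in the GC-slope model (adjusted p = 0.0012). H2BC5 was at 15.3 and 13.2 CPM against 6.26 and 4.86 CPM, a log2 difference of 1.29 ± 0.24 without the slope (adjusted p = 0.0938). H2AC6 was at 13.9 and 14.8 CPM against 5.41 and 6.07 CPM, and H2BC21 at 7.06 and 4.88 CPM against 1.85 and 2.03 CPM. H4C9 and H2BC5 kept their GC-slope call in all 4 left-out fits, and H2AC6 and H2BC21 in 2 of 4 each. The groups did not overlap in any of these 5 genes. H1-2, a linker histone, was at 27.8 and 49.5 CPM in the combination against 16.9 and 14.8 CPM under APR-246. It rose by 0.98 ± 0.18 in the GC-slope model (adjusted p = 0.0057) and was named after its values were seen.

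**Figure D2:**
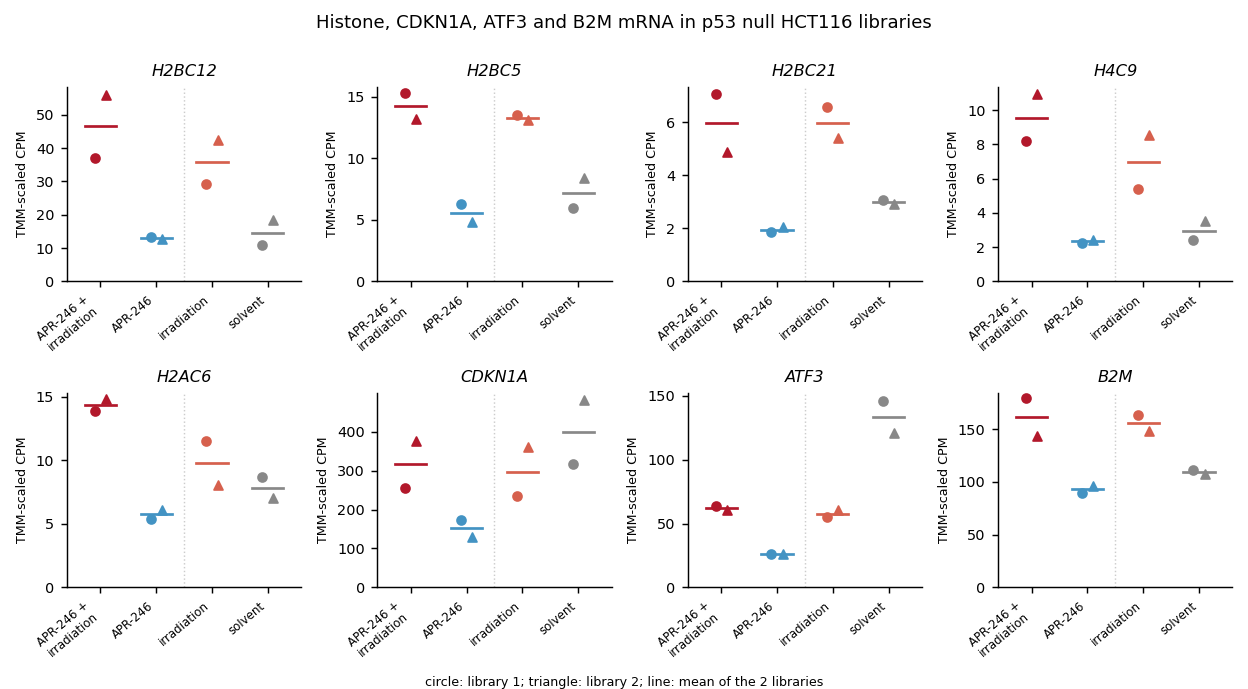
TMM-scaled CPM (vertical axes, from 0) of 5 histone genes, CDKN1A, ATF3 and B2M in the 8 Null libraries, with APR-246 plus irradiation left of APR-246 and irradiation left of solvent. Circles are library 1, triangles library 2 and lines the mean of 2 libraries. CDKN1A and ATF3 stand higher in the combination than under APR-246, while their irradiation libraries do not stand above both solvent libraries.

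All 39 p53 targets were tested, the median log2 difference was 0.17, none was called without the slope and 2 rose with it, beside 1.3% of all genes tested. The median was 0.06 without APR-246 library 1 and 0.05 without APR-246 library 2. These were CDKN1A, the inhibitor of cyclin-dependent kinases, and PMAIP1 (NOXA), a BH3-only protein that promotes apoptosis. CDKN1A (chromosome 6, 36676460 to 36687339, plus strand) was at 255 and 377 CPM in the combination, against 173 and 130 CPM under APR-246. The groups did not overlap. Its log2 difference was 1.04 ± 0.40 (adjusted p = 0.701), and 0.88 ± 0.16 in the GC-slope model (adjusted p = 0.00568), where it lost its call without APR-246 library 2 (adjusted p = 0.0551). PMAIP1 was at 66.1 and 35.3 CPM against 22.6 and 25.95 CPM, and rose by 1.14 ± 0.19 in the GC-slope model (adjusted p = 0.00354), kept in 3 of the 4 left-out fits. MDM2, the ubiquitin ligase that limits p53, was at 33.98 and 14.4 CPM in the combination and at 19.8 and 28.1 CPM under APR-246. The MDM2 groups overlapped, at a log2 difference of -0.09 ± 0.58 without the slope and 0.22 ± 0.17 with it. GDF15, a stress cytokine, was at 361 and 649 CPM against 306 and 162 CPM, a log2 difference of 1.12 ± 0.65 (adjusted p = 0.987).

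Among immediate early and stress genes, FOS passed in the GC-slope model and its partners stood higher without passing. FOS, a subunit of AP-1, was at 38.6 and 35.7 CPM in the combination against 16.6 and 20.1 CPM under APR-246. It rose by 0.99 ± 0.20 in the GC-slope model (adjusted p = 0.0113) and was at 1.00 ± 0.26 without the slope (adjusted p = 0.289). That call was kept only without APR-246 library 2. JUN, the other AP-1 subunit, was at 147 and 145 CPM against 62.4 and 53.5 CPM, with a log2 difference of 1.33 ± 0.39 (adjusted p = 0.432, and 0.0901 with the slope). ATF3, a stress-induced repressor, was at 63.6 and 60.8 CPM against 25.7 and 26.1 CPM (1.25 ± 0.36, adjusted p = 0.41, and 0.0647 with the slope). For JUN and ATF3 the libraries of a group lay close together and the groups lay far apart, and the SE comes from the spread pooled over all 12 groups. DUSP1, a phosphatase that ends MAP kinase signalling, was at 32.1 and 41.1 CPM against 18.3 and 15.96 CPM (1.06 ± 0.42, adjusted p = 0.743). EGR1 was at 318 and 336 CPM against 224 and 207 CPM.

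Of the 20 genes of ERK output and feedback, 1 rose and 0 fell in the GC-slope model, with a median of -0.01 without the slope. Over all genes tested, 1.3% rose and 1.32% fell in the GC-slope model. NF-kB targets and cytokines had a median of 0.30 over 22 tested genes, and 0 were called in either model. TNF stood near the floor, at 0.291 and 0.213 CPM in the combination against 0.0362 and 0.0333 CPM under APR-246. CXCL8 was at 1.75 and 1.33 CPM against 0.579 and 0.499 CPM (adjusted p = 0.909), without overlap. IL6 and IL1B stayed below the filter. Antigen presentation by MHC class I had a median of 0.39 over 15 genes (0.23 with the slope, and 0.21 to 0.61 when 1 of the 4 libraries was left out), and 1 of them, B2M, rose in the GC-slope model. B2M, the light chain of MHC class I, was at 180 and 143 CPM in the combination against 89.8 and 96.3 CPM under APR-246, a rise of 0.84 ± 0.11 (adjusted p = 0.000458) kept in all 4 left-out fits. Without the slope its difference was 0.78 ± 0.24 (adjusted p = 0.496).

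The rule of smallest unadjusted p in the model of group means gave further genes, which were not called in that model. WNT9A, a secreted WNT ligand, was at 31.3 and 46.4 CPM in the combination against 15.1 and 16.7 CPM under APR-246 (1.24 ± 0.23, adjusted p = 0.0938), and rose by 1.18 ± 0.15 in the GC-slope model (adjusted p = 0.0003), kept in all 4 left-out fits. COL5A3, a collagen V chain, was at 2.30 and 3.93 CPM against 0.996 and 0.466 CPM (1.55 ± 0.28, adjusted p = 0.0938). XDH, xanthine dehydrogenase of purine breakdown, was at 2.12 and 2.23 CPM against 0.615 and 0.914 CPM (1.09 ± 0.19, adjusted p = 0.0865). LBH was at 3.04 and 3.598 CPM against 0.923 and 0.565 CPM, and MAB21L4 at 2.40 and 8.64 CPM against 0.615 and 0.698 CPM. These 5 genes were picked by their p in the same libraries, so what follows is no separate support. In all 5 both combination libraries lay above both APR-246 libraries, as in 16.5% of all genes tested. All 5 rose in the GC-slope model, as did 1.3% of all genes tested. That call was kept in 4 left-out fits for WNT9A, 3 for COL5A3 and MAB21L4, 2 for XDH and 1 for LBH.

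Intestinal epithelium genes had a median log2 difference of 0.55 over the 17 of 26 listed members that passed the filter. That median fell to 0.33 with the slope. AQP3 and CA2 rose in the GC-slope model, beside 1.3% of all genes tested. AQP3, a glycerol and water channel, was at 24.7 and 44.6 CPM in the combination against 12.4 and 12.4 CPM under APR-246, a rise of 1.19 ± 0.16 (adjusted p = 0.000487) kept in all 4 left-out fits. CA2, a carbonic anhydrase of surface colonocytes, was at 37.6 and 33.6 CPM against 15.0 and 20.8 CPM, a rise of 1.04 ± 0.20 (adjusted p = 0.00957) kept in 2 of 4. KRT18, a keratin of simple epithelium, was at 1401 and 2604 CPM against 1247 and 869 CPM, and its difference of 0.87 ± 0.66 did not pass. ID2, an inhibitor of basic helix-loop-helix factors, led the 23 tested genes of the BMP, ID and WNT list, at 45.6 and 34.3 CPM against 14.2 and 22.2 CPM, and rose by 1.17 ± 0.22 in the GC-slope model (adjusted p = 0.00814), kept in 2 of 4 left-out fits. BMP4 itself was at 140 and 150 CPM in the combination against 122 and 119 CPM under APR-246 (0.27 ± 0.40, adjusted p = 0.987).

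No gene passed in the lower direction without the slope, and the genes below were reached by the rule of smallest unadjusted p. H6PD, which makes NADPH in the lumen of the endoplasmic reticulum, was at 41.7 and 31.1 CPM in the combination, against 100.2 and 69.8 CPM under APR-246. Its log2 difference was -1.20 ± 0.32 (adjusted p = 0.306), and it fell by 1.15 on the log2 scale in the GC-slope model (SE 0.26, adjusted p = 0.025). RPS6KA2 (RSK3), a kinase downstream of ERK, was at 12.9 and 8.19 CPM against 24.9 and 18.6 CPM (-1.03 ± 0.26, adjusted p = 0.268). GNAZ, a G protein alpha subunit, was at 13.6 and 9.82 CPM against 23.4 and 21.1 CPM (-0.92 ± 0.24, adjusted p = 0.306).

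The same rule gave PIK3C2B, a class II phosphoinositide 3-kinase, at 15.4 and 14.7 CPM in the combination against 29.8 and 26.6 CPM under APR-246 (-0.88 ± 0.20, adjusted p = 0.206). CAMKK1, a kinase that activates calmodulin-dependent kinases, was at 10.6 and 9.61 CPM against 19.5 and 17.7 CPM (-0.85 ± 0.21, adjusted p = 0.261). MCF2L, a guanine nucleotide exchange factor, was at 18.04 and 14.9 CPM against 33.7 and 27.7 CPM. EEF2K, which slows translation elongation, was at 31.5 and 22.6 CPM against 46.9 and 42.5 CPM. BRD3, a BET bromodomain protein, was at 36.5 and 30.5 CPM against 54.0 and 54.2 CPM. TRRAP, a scaffold of histone acetyltransferase complexes, was at 96.8 and 75.7 CPM against 149 and 143 CPM, and SRCAP, which loads H2A.Z, at 5.15 and 4.02 CPM against 8.91 and 7.73 CPM. The rule also gave RSAD1 and PRAM1. Over all genes tested, 16.8% had both combination libraries below both APR-246 libraries, and 1.32% were called lower with the slope. Genes given by the rule were picked by their p in these same libraries, so the next counts are no separate support. All 12 of these genes fell in the GC-slope model with both combination libraries below both APR-246 libraries, and 0 of the 12 kept that call without APR-246 library 1.

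**Figure D3:**
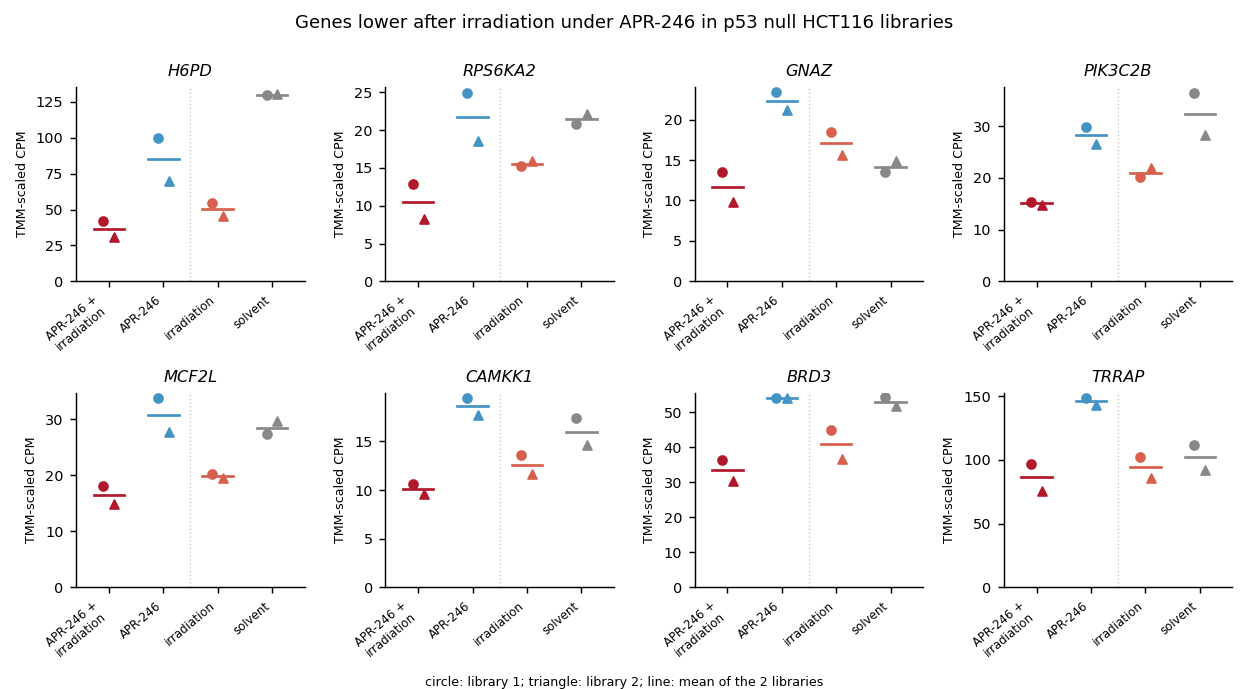
TMM-scaled CPM (vertical axes, from 0) of 8 genes with lower values in the combination, in the 8 Null libraries, with APR-246 plus irradiation left of APR-246 and irradiation left of solvent. Circles are library 1, triangles library 2 and lines the mean of 2 libraries. In every panel both combination libraries lie below both APR-246 libraries, for H6PD at 41.7 and 31.1 CPM against 100.2 and 69.8 CPM.

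Hypoxia and glycolysis genes had a median of -0.12 over 33 members, and 2 fell in the GC-slope model. Over all genes tested, 1.32% fell and 1.3% rose in that model, the shares to set beside each count in this paragraph. HK2, the hexokinase of proliferating cells, was at 59.9 and 50.9 CPM in the combination against 91.5 and 107 CPM under APR-246, and fell by 0.73 with the slope (adjusted p = 0.0289). NDRG1 was the other (adjusted p = 0.0304). HK2, NDRG1 and, below, ABCC2 held this call in none of the 4 left-out fits. ADM, which encodes adrenomedullin and is also induced by hypoxia, stood higher, at 21.02 and 27.4 CPM against 13.1 and 12.9 CPM without passing (adjusted p = 0.824). In the list of NRF2, thioredoxin and glutathione, the systems that APR-246 is known to engage, 0 of 28 genes rose and 1 fell with the slope, at a median of 0.02 without it. That gene was ABCC2, an exporter of glutathione conjugates, at 16.8 and 9.28 CPM in the combination against 21.02 and 28.03 CPM under APR-246 (adjusted p = 0.0304). SREBF2, the factor that drives sterol synthesis, was the single one of 24 cholesterol genes to fall with the slope (-0.62 ± 0.14, adjusted p = 0.0226), and was at -0.41 ± 0.45 without it.

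Over 29 tested genes of amino acid stress under ATF4 the median was -0.11, and 0 were called in either model. DDIT4, an inhibitor of mTORC1, was at 48.4 and 48.2 CPM in the combination against 53.6 and 47.1 CPM under APR-246. TSC22D3 was at 16.2 and 14.4 CPM against 16.4 and 14.2 CPM, and STC2 at 57.8 and 61.9 CPM against 75.5 and 61.2 CPM. The groups of all 3 overlapped. ASNS, asparagine synthetase, was at 2.12 and 1.04 CPM against 4.96 and 3.03 CPM (-1.13 ± 0.66, adjusted p = 0.987), and SLC7A1, a transporter of cationic amino acids, at 104 and 104 CPM against 198 and 166 CPM (-0.80 ± 0.36, adjusted p = 0.879).

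The cell cycle lists held no called member in either model. DNA replication had a median of 0.13 over 40 genes, G2/M and mitosis 0.15 over 34, and homologous recombination and Fanconi -0.20 over 29. With the slope they were 0.02, 0.12 and -0.07. The G2/M median was -0.04 without combination library 1 and 0.31 without combination library 2, and that of homologous recombination was -0.52 and 0.24 in the same fits. DNA replication was at 0.04 without APR-246 library 1 and 0.23 without APR-246 library 2. CCNB1, the mitotic cyclin B1, was at 243 and 255 CPM in the combination against 179 and 194 CPM under APR-246 (0.42 ± 0.40, adjusted p = 0.987). GINS4, a subunit of the replicative helicase, was at 17.2 and 18.5 CPM against 10.9 and 13.2 CPM (0.55 ± 0.28, adjusted p = 0.938). Fewer cells in a phase and less RNA per cell cannot be told apart in bulk libraries. Heat shock chaperones had a median of 0.35 over 18 genes, of which HSPB8 rose with the slope (0.93 ± 0.25, adjusted p = 0.0457) but in none of the 4 left-out fits. Of the secreted factors of senescent cells, 1 of 24 rose with the slope, beside 1.3% of all genes tested. Of 20 endoplasmic reticulum chaperones and 4 metallothioneins, 0 were called in either model. Fibroblast and blood cell markers had a median of 0.24 over the 8 of 15 that passed the filter, and 0 were called. Their part in the results above was not tested.

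**Figure D4:**
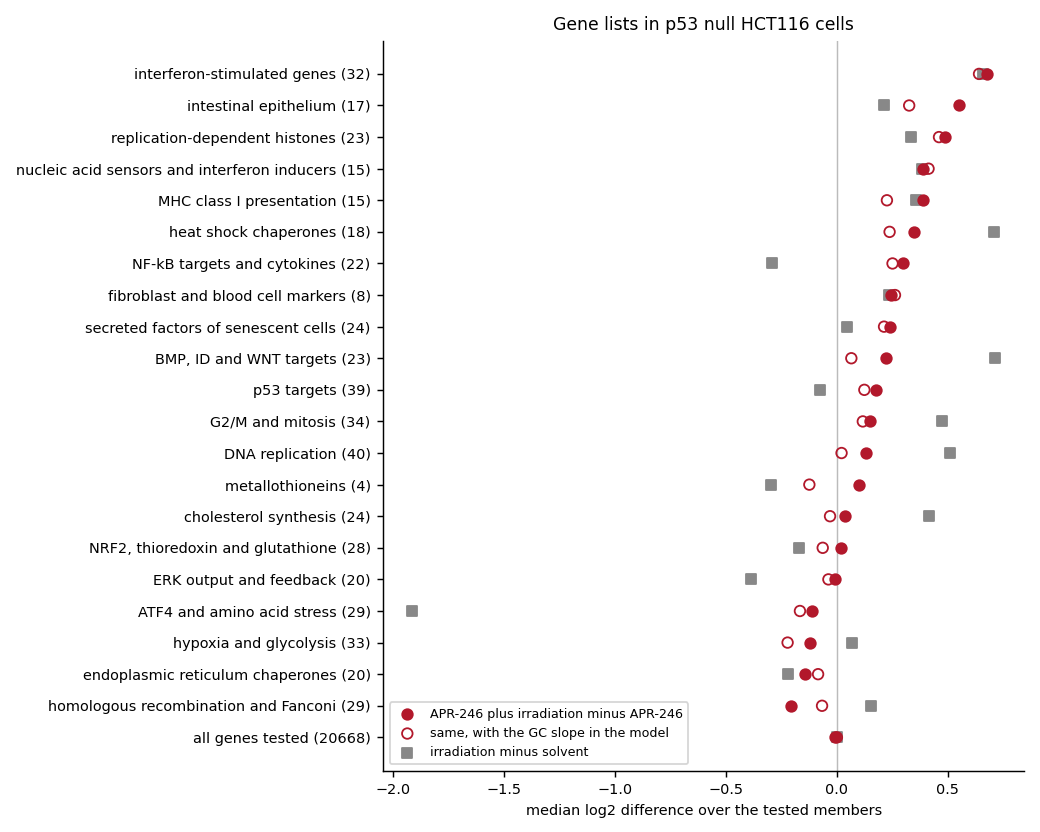
Median log2 difference (horizontal axis) of each gene list in Null cells, with the number of members tested in brackets. Filled circles are APR-246 plus irradiation minus APR-246, open circles the same with the GC slope in the model, and squares irradiation minus solvent. Interferon-stimulated genes stand highest in the first comparison (0.68), and ATF4 and amino acid stress genes stand far lower in irradiation minus solvent (-1.91) than in the first comparison (-0.11).

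Irradiation of Null cells without APR-246 gives a second measure of the response in 4 libraries that the comparison above does not use. There 85 genes were called higher (0.411%) and 55 lower (0.266%). Of the 85, 79 also had a log2 difference above 0 under APR-246, against 48.6% of all genes tested, with a median of 0.52 under APR-246 and 1.39 without it. Of the 55, 41 lay below 0, against 51.2% of all genes, with a median of -0.17 under APR-246 and -1.55 without it. IFIT1, KRT6B and IFNL2 were called in both comparisons. IFIT1 was at 10.0 and 11.7 CPM after irradiation and at 1.51 and 1.15 CPM in solvent, a log2 difference of 2.63 beside 2.29 under APR-246. Over 20668 genes Pearson's r between the 2 sets of differences was 0.38 (0.32 with the slope), as a description across genes, which are not independent replicates. In the GC-slope model 147 of the 269 genes higher under APR-246 (54.6%) were also among the 1874 higher without it (9.07% of genes tested), which is 7.84% of those, and 117 of the 272 lower (43.0%) were among the 2256 lower (10.9% of genes tested), which is 5.19% of those. A further 2 and 5 were called in the opposite direction.

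The difference of the 2 responses was tested directly. Without the slope limma called 0 genes, with 946 at an unadjusted p under 0.05, DESeq2 called 26 and edgeR 0. With the slope 367 genes had a more positive response under APR-246 (1.78%) and 330 a more negative one (1.6%), together 3.37%. CDKN1A was among the first, at 1.40 ± 0.22 (adjusted p = 0.0056). Its level was 234 and 360 CPM after irradiation against 318 and 482 CPM in solvent, and these groups overlapped. The GC-slope model called CDKN1A lower there (adjusted p = 0.0208). In the combination its level was 255 and 377 CPM, against 173 and 130 CPM under APR-246. ATF3 (2.46 ± 0.48, adjusted p = 0.0195) and DUSP1 (1.93 ± 0.37, adjusted p = 0.0139) had called differences of the same sign. ATF3 was at 55.1 and 60.3 CPM after irradiation against 146 and 121 CPM in solvent, and DUSP1 at 32.3 and 41.8 CPM against 68.9 and 73.7 CPM. The irradiated levels of CDKN1A, ATF3 and DUSP1 were thus close with and without APR-246, and the unirradiated levels differed. TSC22D3 showed the same layout, at 20.6 and 16.8 CPM after irradiation against 121 and 153 CPM in solvent (2.83 ± 0.66, adjusted p = 0.0377). In the opposite direction, CA2 had a response smaller by 1.28 ± 0.29 under APR-246 (adjusted p = 0.021), with 25.9 and 22.7 CPM after irradiation against 5.41 and 3.84 CPM in solvent. BMP4 had one smaller by 2.10 ± 0.53 (adjusted p = 0.0488), with 127 and 117 CPM after irradiation against 22.6 and 24.9 CPM in solvent. Of the interferon-stimulated genes 1 of 32 had a called difference, and of the histone genes 0 of 23. IFIT1 (-0.35 ± 0.28), OASL (0.51 ± 0.25) and H2BC12 (0.40 ± 0.24) did not differ beyond the threshold, which does not show that the responses are equal.

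The same step in the other lines places the Null response among 3 backgrounds, and these comparisons share no library. Irradiation on top of APR-246 called 78 genes higher and 7 lower in WT and 0 in Mutant without the slope. With the slope the calls were 982 higher and 759 lower in WT, and 67 higher and 9 lower in Mutant. In Null they were 269 higher and 272 lower in that model. IFIT1 was at 20.0 and 20.8 CPM in the WT combination against 1.87 and 2.73 CPM under APR-246, and at 17.01 and 18.1 CPM against 6.77 and 9.43 CPM in Mutant. The log2 difference was 2.29 in Null, 2.92 in WT and 1.08 in Mutant. OASL gave 2.55 in Null, 1.95 in WT and 1.66 in Mutant, H2BC12 gave 1.76, 0.97 and 1.15, and H6PD gave -1.20, -1.31 and -0.97 in the same order. Of the 32 interferon-stimulated genes 25 were above 0 in all 3 lines, against 19.1% of all genes. Of the histone genes it was 13 of 23.

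Where Null and WT were tested against each other, limma called 0 genes without the slope (686 at an unadjusted p under 0.05), DESeq2 called 4 and edgeR 0. With the slope 3 genes had a more positive response in Null (0.0145%) and 18 a more negative one (0.0871%), together 0.102%. PLK2, a polo-like kinase induced by p53, was at 122 and 67.8 CPM in the Null combination and 92.3 and 88.0 CPM under APR-246 in Null, and at 257 and 246 CPM in the WT combination and 69.3 and 66.4 CPM under APR-246 in WT. Its difference was -1.58 ± 0.18 (adjusted p = 0.00027). TP53I3, a p53-induced oxidoreductase, differed by -1.78 ± 0.27 (adjusted p = 0.00482) and MDM2 by -1.28 ± 0.24 (adjusted p = 0.0268). CPA4, a carboxypeptidase, differed by -2.02 ± 0.25 (adjusted p = 0.00048), with 29.9 and 29.3 CPM in the Null combination against 17.6 and 16.4 CPM under APR-246, and 126 and 176 CPM in the WT combination against 21.1 and 17.96 CPM. FOS was more positive in Null, by 1.55 ± 0.28 (adjusted p = 0.0235), with 15.4 and 17.1 CPM in the WT combination against 29.7 and 20.1 CPM under APR-246 in WT. Of the 39 p53 targets 4 had a called difference, each more negative in Null. CDKN1A, at 1687 and 1730 CPM in the WT combination against 646 and 629 CPM under APR-246, had a log2 difference of 1.04 in Null and 1.42 in WT, and the difference of -0.70 ± 0.22 with the slope did not pass (adjusted p = 0.277). PLK2 and CPA4 were named after their values were seen.

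Against Mutant, limma called 0 genes in either model, with 352 at an unadjusted p under 0.05 without the slope, and DESeq2 and edgeR called 0. The median SE of a difference between 2 responses was 0.45 without the slope and 0.26 with it. Left-out fits with the slope were run for the combination against APR-246 only.

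**Figure D5:**
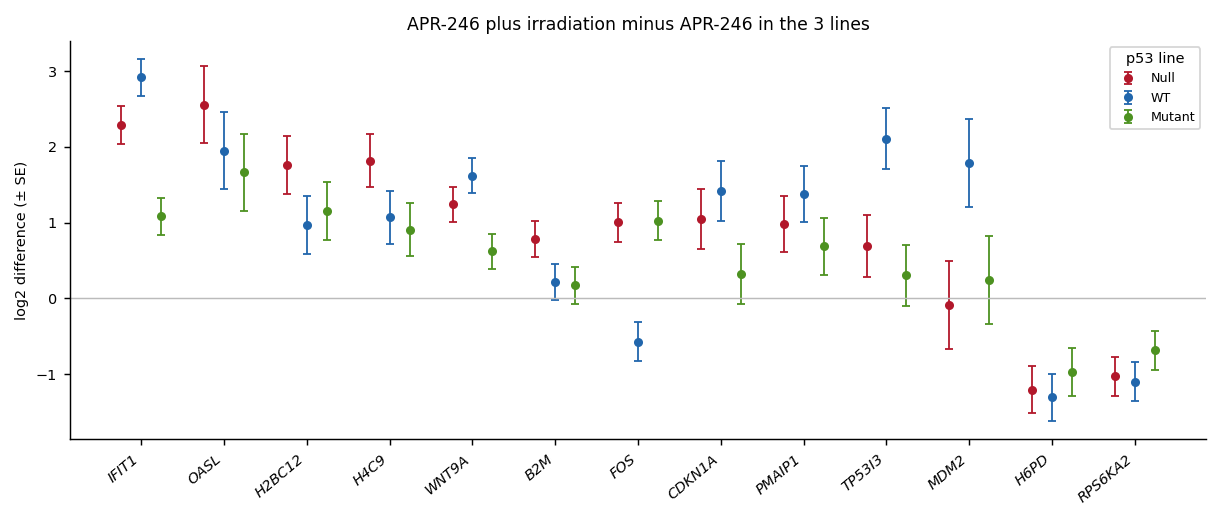
Log2 difference of APR-246 plus irradiation minus APR-246 (vertical axis, points with SE bars from the model of group means) for 13 genes in Null, WT and Mutant. IFIT1 is above 0 in all 3 lines (2.29, 2.92 and 1.08), H6PD below 0 in all 3 (-1.20, -1.31 and -0.97), and TP53I3 and MDM2 are far higher in WT (2.11 and 1.79) than in Null (0.69 and -0.09).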

How the data were processed

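Levels were deposited as CPM per gene in 24 libraries. FastQC, STAR, featureCounts of Subread and the build GRCh38.p13 are named in the submitters' processing notes. Versions, annotation release and counting strand are not given in the sources used here. The low values of each library were whole multiples of 1 read, and 100% of values came out whole within 0.05 read, so counts were recovered. They were even more often than odd, as when both mates of a pair are counted.

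From the deposited CPM, genes with enough reads were kept by edgeR's filterByExpr (minimum count 10), which left 20668 of 60675 identifiers, and log2(TMM-scaled CPM + 0.5) was fitted by limma (limma 3.58.1, edgeR 4.0.16, R 4.3.3) with trend and robust variance, 12 group means over all 24 libraries and 12 residual degrees of freedom. Fold changes are on this scale and understate changes of low genes. Adjusted p-values are Benjamini-Hochberg over all genes. The GC-slope model adds the GC slope of each library (11 residual degrees of freedom). edgeR and DESeq2 1.42.0 on the recovered reads, and other alternatives, are reported in the closing section. The fits were tested on data simulated from the GC-slope model. There the model of group means recovered 4% of 2-fold and 48% of 4-fold changes, with 3 false calls. The GC-slope model recovered 75% and 95%, with 21 false calls. Because the simulated means came from the GC-slope model, this test cannot choose between the 2 fits. Between 53184139 and 58058729 reads were assigned a library, and 3 reads correspond to 0.0519 to 0.0553 CPM in the 4 libraries compared, as counting error only.

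Named genes are those called, filled up to 12 in each direction by the smallest p among genes averaging at least 1 CPM, up to 4 members of each of 21 lists with the smallest p, and a few fixed genes. OAS1, IFI27, IFI6, ISG15, IRF7, BST2, IFIH1, RIGI, H1-2, PLK2, CPA4, NDRG1, SREBF2 and KRT18 lie outside this rule and were chosen after their values were seen. The members and lists were chosen with earlier results of these data known. The level of the targeted gene is not reported here. Gene coordinates are from GENCODE 29 on GRCh38.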

Additional observations from a re-analysis of the deposited data

How the results depend on the processing

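The count of 5 for the combination against APR-246 became 1 with DESeq2 size factors or with edgeR, 53 (47 higher, 6 lower) without the filter on low counts, 14 with 2 CPM added before the logarithm, 49 with DESeq2, 0 with Null libraries alone, 541 with the GC slope, 103 (82 higher, 21 lower) with the replicate block, 60 with a block per line and 924 (407 higher, 517 lower) with slope and block. For irradiation against solvent the 140 calls became 148, 18, 151, 219, 733, 28, 4130, 1302, 951 and 4450 in the same settings, with edgeR second. The 0 calls for the difference between the responses with and without APR-246 became 9 without the filter, 4 with 2 CPM, 26 with DESeq2, 697 with the slope, 2 with the replicate block and 768 with slope and block. The 0 for Null against WT became 11, 2, 4, 21, 6 and 18, and the 0 for Null against Mutant became 7 without the filter. Leaving out 1 library gave 0 to 57, 1 to 25, 0 to 1, 0 to 4 and 0 to 15 calls for these 5 comparisons in the order above, and 25 to 860 for the first with the slope (234 without Null APR-246 library 2). The cause of these shifts was not tested.

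The numbers do not establish pairing: with 2 libraries a group, deviations of the Null APR-246 libraries correlated at -0.72 to -0.25 with same-numbered libraries of other groups, against 0.53 to 0.95 among the other 55 pairs. With the Null APR-246 numbers crossed, in a block chosen after seeing the data, the calls were 245, 1956, 6, 5 and 0 in the same order.

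Among named genes, signs reversed for MDM2 (-0.09), at 0.22 with the slope, 0.24 with slope and block, 0.0164 with edgeR, 0.0261 with DESeq2 and -0.70 to 0.51 (0.149 to 0.282 with the slope, 0.234 without combination library 2) without 1 library. PLK2 reached -0.00957 without the filter, and -0.42 to 0.44 (-0.0270 to 0.31 with the slope) without 1 library. TSC22D3 was at -0.0218 without the filter, -0.0113 with the slope, -0.13 with slope and block, -0.0112 with Null libraries alone, and -0.10 to 0.10 (-0.15 to 0.10 with the slope, -0.109 without Null APR-246 library 2) without 1 library. The ranges were -0.16 to 0.0274 for DDIT4, and with the slope -0.34 to 0.20 for STC2 (0.120 without Null APR-246 library 1) and -0.12 to 0.56 for CCNB1. These genes were not called. Of the other values for single genes, 1121 kept direction and side of the threshold, 295 passed it only in the alternative and 34 only in the main setting. List medians that turned sign or moved by over 1.5 times without 1 library, beside those in the report, ranged from -0.27 to 0.08 for ATF4 genes, -0.24 to 0.16 for hypoxia, -0.14 to 0.21 for NRF2, -0.17 to 0.20 for ERK output, 0.36 to 0.65 for intestinal epithelium and 0.22 to 0.45 for fibroblast and blood cell markers. Metallothioneins ranged from -0.28 to 0.46, endoplasmic reticulum chaperones from -0.29 to -0.01 and BMP, ID and WNT targets from 0.04 to 0.31. Cholesterol synthesis ranged from -0.08 to 0.0006 and secreted factors of senescent cells from 0.19 to 0.48.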
